A study of Mus musculus with 6 samples.

Results

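Endothelial marker genes were followed in cultures labelled as hepatic stellate cells. These are the vitamin A-storing pericytes of the liver, which become myofibroblasts when cultured. Markers of macrophages were also abundant in these libraries, as given below. The set was 36 genes, chosen by name as markers of endothelial cells in general and of the liver sinusoid, with earlier results of these data known. All 36 were among the 55401 genes of the deposited table. Cells came from WT mice (3 libraries) and from mice with a single intact copy of the calcium-binding protein gene S100a16, S100a16+/- (3 libraries), all on the C57BL/6J background. Every culture was kept for 7 days in medium with serum, and the ages and sexes of the mice and the number of mice per culture are not given in the labels. RNA was sequenced to between 61979103 and 76291481 counts per library. The labels do not say whether libraries of a genotype are separate mice, so p-values measure only the spread between these libraries, which may be technical.

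Endothelial cells line vessels and hold to each other through VE-cadherin (Cdh5), PECAM-1 (Pecam1) and claudins. They read VEGF through the tyrosine kinase receptors Kdr, Flt1 and Flt4 and angiopoietins through Tek, and transcription factors of the ETS and SOX families, among them Erg, Sox17 and Sox18, maintain their gene programme. The sinusoidal endothelium of the liver is fenestrated and takes up waste from blood through scavenger receptors such as Stab2. It also makes the hyaluronan receptor Lyve1, and it lies directly against the stellate cells. Several of the 36 genes are not restricted to endothelium: Lyve1 is also made by some macrophages, Eng by activated stellate cells and macrophages, Pecam1 and Icam2 by leukocytes and Aqp1 by bile duct cells.

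The targeted gene was lower in each S100a16+/- library. S100a16 had an FPKM (counts scaled to gene length and library size) of 18.1, 17.7 and 30.0 in S100a16+/- replicates 1 to 3 and 57.7, 58.8 and 56.8 in WT replicates 1 to 3 (exact permutation p = 0.1, two-sided, the smallest that 3 against 3 allows). The S100a16+/- libraries were not alike, and S100a16+/- replicate 3 differed from the others. Its Xist FPKM was 32.2 against at most 0.0323 elsewhere, and its Pearson correlation of log2 CPM across genes was 0.932 with replicate 1 and 0.929 with replicate 2, which had 0.982 between them. With the WT libraries the correlation was 0.946 to 0.950 for replicate 3 and 0.949 to 0.959 for replicates 1 and 2, and the chi-square per gene between counts was 258 to 294 for replicate 3 and 425 to 498 for the others. Stellate cell markers, 22 genes, had a summed FPKM of 460.4 there. The sum was 1378 and 1342 for S100a16+/- replicates 1 and 2, and 1266 to 1390.0 for WT. Of these markers Lrat, Ngfr, Lhx2, Rgs5, Gfap and Reln were among the 9 that did not reach the minimum for testing, while Acta2 and Vim, the most abundant of the list, did. Acta2, smooth muscle actin, had 489, 470.1 and 48.0 FPKM against 388, 437 and 425 in WT, and Vim, vimentin, 186, 177 and 209.7 against 221, 213 and 235. None of the 13 tested stellate markers was called over 6 libraries. Without replicate 3, 3 fell and 5 rose, where 16.5% of all tested genes fell and 15.8% rose. The chemokine receptor gene Cxcr4, no member of the set, was at 14.8, 17.3 and 52.4 against 69.4, 64.9 and 60.1 (log2 change -1.16 ± 0.49 at adjusted p = 0.241). Because of that library, results are given with and without it. The part of its sex and cell mix in the results was not tested.

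Endothelial transcripts were abundant in all 6 libraries, and they were less abundant in 2 of the 3 S100a16+/- libraries. The FPKM of the 36 genes summed to 1638 and 1557 in S100a16+/- replicates 1 and 2, to 3241 in replicate 3, and to 3198, 2963 and 2992 in the WT libraries. They took 0.800% and 0.761% of all counts in S100a16+/- replicates 1 and 2, 1.64% in replicate 3 and 1.47% to 1.60% in WT. In these sums replicate 3 was thus slightly above the WT libraries, and the other S100a16+/- libraries were below them. The sum does not describe each gene. Of the 33 tested members, replicate 3 was above all WT libraries in 16, below all in 13 and within their range in 4. Cdh5 alone had an FPKM of 930.1 in replicate 3, against 628 to 698 in WT. In bulk RNA, fewer endothelial cells and less RNA per endothelial cell cannot be told apart. Within a genotype the libraries were otherwise close: the CV of a gene over the WT libraries had a median of 6.19%, and S100a16+/- replicates 1 and 2 differed per gene by a median of 5.46% of their mean.

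**Figure D1:**
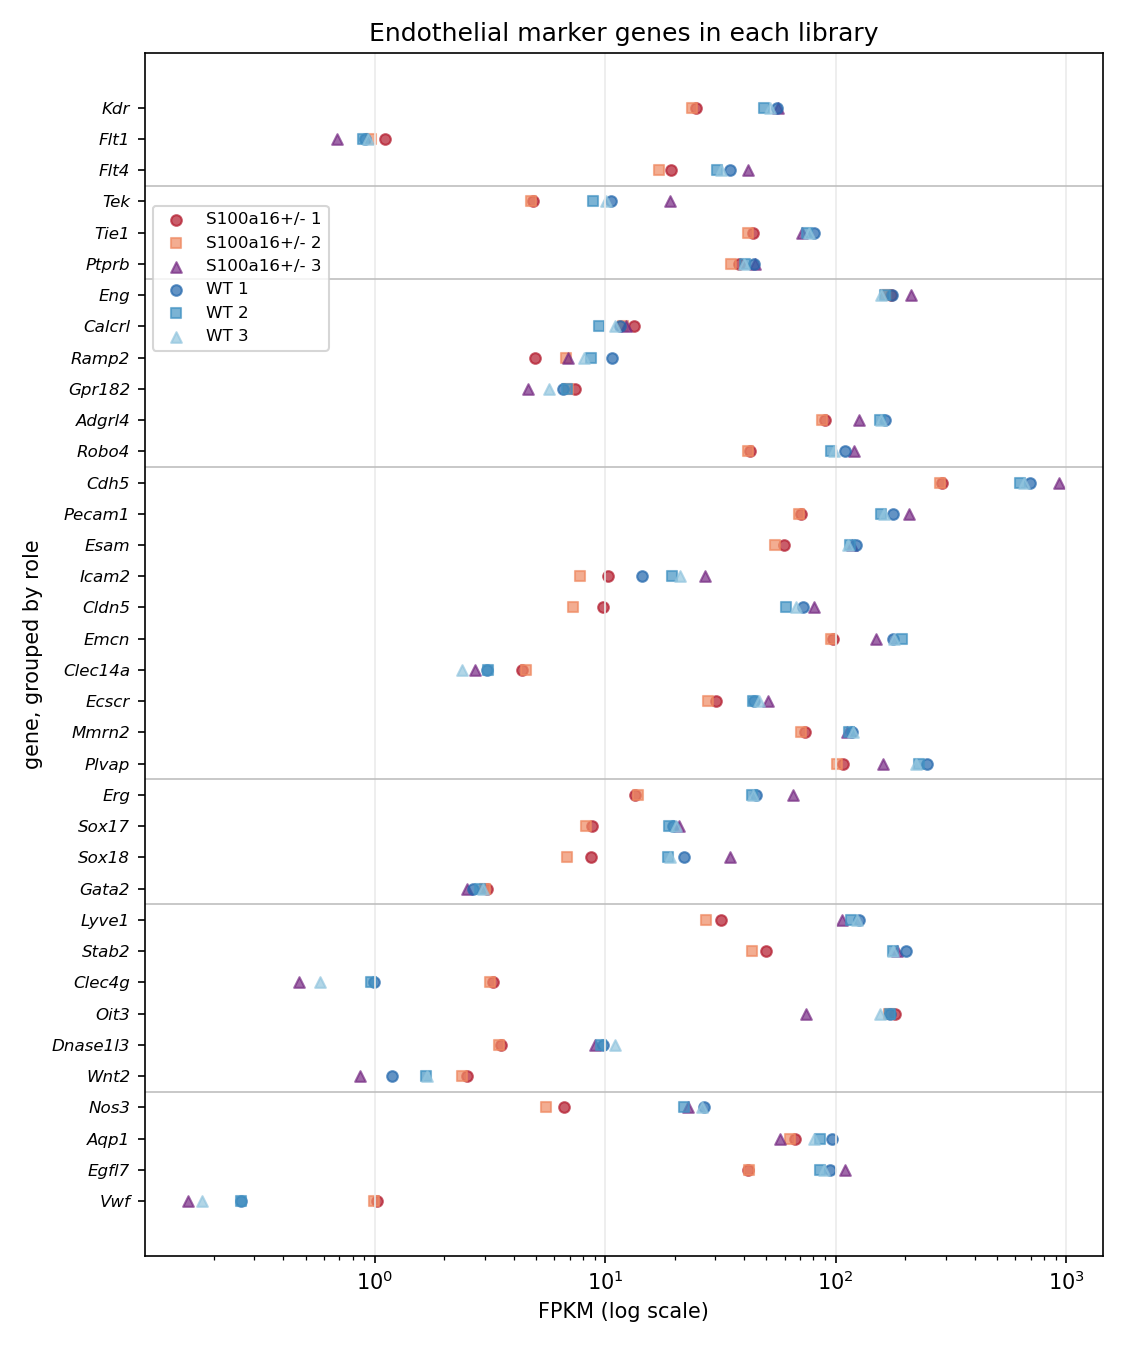
FPKM (log axis) of the 36 endothelial marker genes, grouped by role, with a point for each of the 3 S100a16+/- and 3 WT libraries. For most genes S100a16+/- replicates 1 and 2 lie to the left of the WT points and replicate 3 lies near or to the right of them, as for Cdh5 at 290.3, 283 and 930.1 against 698, 628 and 657.

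Adjusted p-values throughout are from edgeR's quasi-likelihood test with Benjamini-Hochberg adjustment, and the ± after a log2 change is its SE. No endothelial marker passed the test over all 6 libraries. A gene was tested if its FPKM was at least 1 in at least 3 libraries, which 33 of the 36 reached, and called at an adjusted p under 0.05 over all 12766 genes tested. Of the 33, 0 were called lower, where 1.61% of all tested genes were, and 0 were called higher, where 2.85% were (edgeR quasi-likelihood, smallest adjusted p 0.0583, for Plvap). At an unadjusted p under 0.05 there were 6 lower and 1 higher, where 9.54% of all tested genes were lower and 12.4% higher. DESeq2 called 4 lower, Adgrl4, Aqp1, Emcn and Plvap, and 0 higher, where it called 6.00% of all genes lower and 8.85% higher. Limma voom with sample weights, which gives less weight to libraries that vary more, called 25 lower and 3 higher, against 17.8% and 17.2% of all genes. At an adjusted p under 0.1 edgeR gave 3 lower and 0 higher, against 3.65% and 6.05%. The fitted log2 change, S100a16+/- over WT, was below 0 for 26 of the 33, and its median was -0.43, beside 0.00 over all tested genes. In FPKM, 9 members (27.3%) had all S100a16+/- libraries below all WT libraries, against 18.9% of tested genes, and 1 had them all above, against 12.5%.

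Without S100a16+/- replicate 3, 24 of 33 members (72.7%) fell and 2 rose, where 16.5% of the 12601 genes then tested fell and 15.8% rose (edgeR quasi-likelihood, Benjamini-Hochberg). The falls ran from -0.36 to -2.90 on the log2 scale, 14 of them to -1 or below, with adjusted p from 4.04e-05 to 0.0232. The median over the 33 was -0.96, beside 0.00 over all genes. That fit sets 2 S100a16+/- libraries against 3 WT libraries. The set was chosen with earlier results of these data known, and replicate 3 was set apart for its values here. The shares beside all genes are therefore a description. The FPKM of the same libraries, which is no separate support, showed the order of the values. S100a16+/- replicates 1 and 2 were both below every WT library in 26 of the 33 tested members, where 36.4% of tested genes were. They were both above in 5, where 23.5% of tested genes were. Over all 36 members, tested or not, they were both below in 26 and both above in 8. S100a16+/- replicate 3 was above replicates 1 and 2 in 26 of the 33, against 44.6% of tested genes. Relative to WT it lay above all 3 libraries in 16 members and below all 3 in 13, against 34.4% and 40.8% of tested genes.

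**Figure D2:**
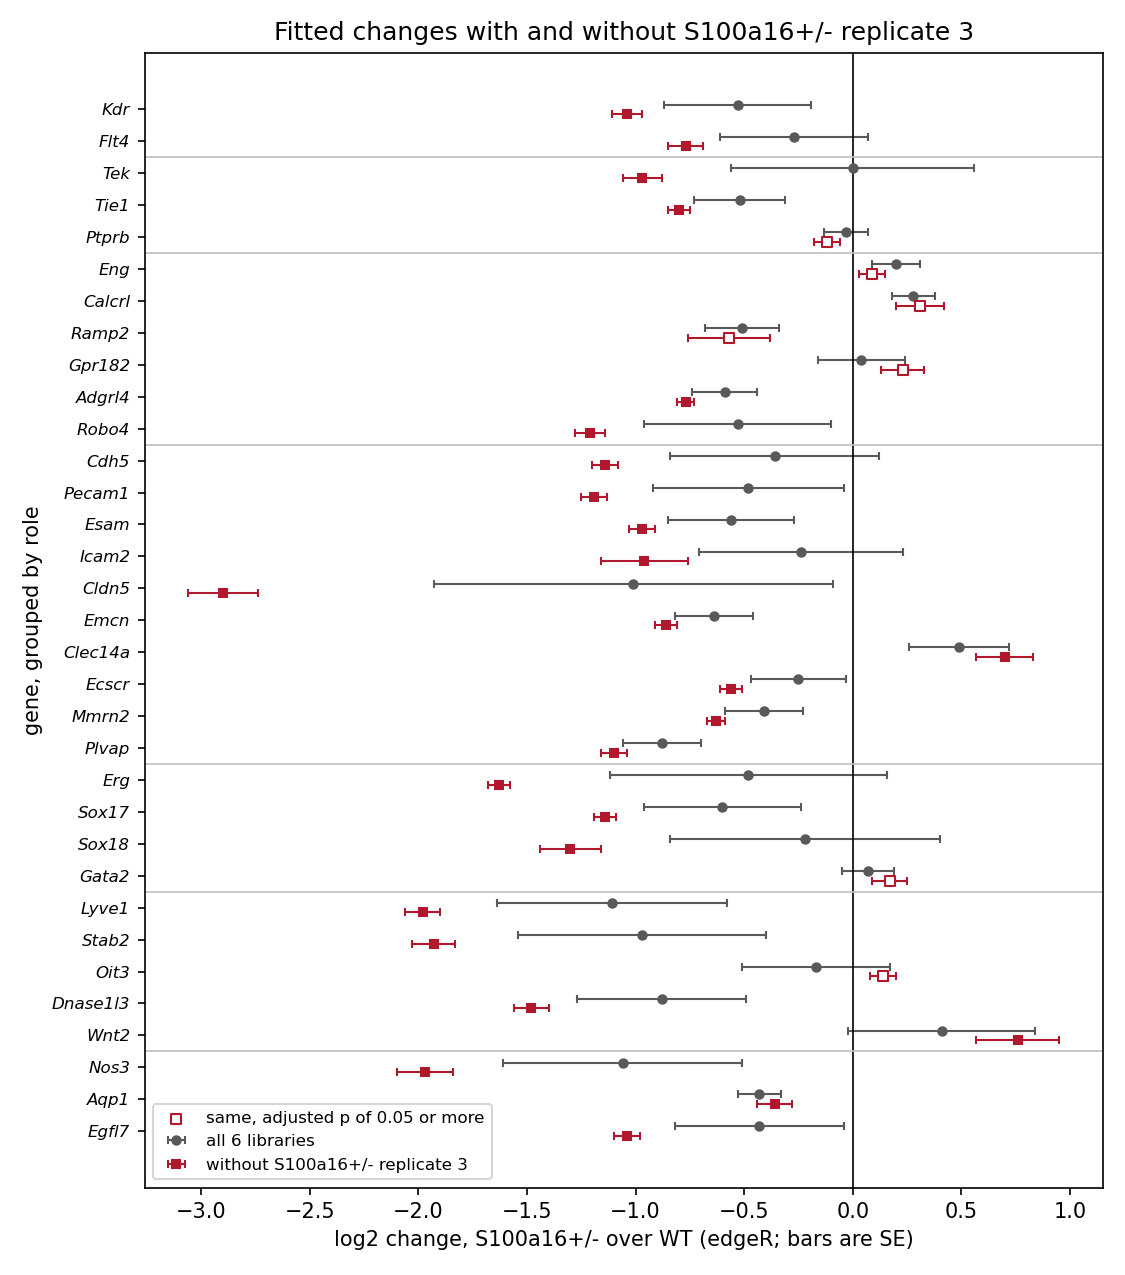
Fitted log2 change, S100a16+/- over WT, of the 33 tested genes with all 6 libraries (grey) and without S100a16+/- replicate 3 (red, open where the adjusted p was 0.05 or more); bars are the SE. The grey points lie between -1.11 (Lyve1) and 0.49 (Clec14a) and the red points between -2.90 (Cldn5) and 0.76 (Wnt2), with shorter bars for most genes.

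Promoter sequences of members are shown as a description. ERG, itself a member, is a factor of the ETS family, and whether it acts on the other members here was not tested. Of the 36 genes, 19 matched RefSeq start sites on GRCm38.p6 by symbol, 24 sites in all, and the 250 bases before each were searched on both strands for 3 motifs, none of which contains another. These were AGGAAG, the core bound by ETS factors, then AGATAA for the GATA family, and ACAATG for SOX proteins. AGGAAG was found at 13 of the 24 starts (54.2%), against 29.5% of all 32851 listed starts, AGATAA at 1 (4.17%, against 9.99%) and ACAATG at 3 (12.5%, against 10.7%). Of the 12 listed genes that fell without S100a16+/- replicate 3, 8 held AGGAAG, as did 2 of the 3 that were not called, 0 of the 2 that rose and both that did not reach the minimum for testing, Flt1 and Clec4g. Clec4g, with 3 matches, reached a minimum needed in 2 libraries only through S100a16+/- replicates 1 and 2, and was not counted with the genes that rose. Matches describe these letters only. By the GENCODE M21 gene models, some windows hold exon bases of their own gene: all 250 for Flt4 and for a window of Gata2, and 212 for Tie1. The AGGAAG matches of Calcrl, Robo4 and Stab2 lie in such exon bases. The 5 windows below, each written 5′ to 3′ with matches in capitals, are from the endomucin gene Emcn, Adgrl4 and Erg (which fell without that library and hold a match), Cldn5 (the largest fall, no match) and Eng (not called, 2 matches); for Erg the one of 3 starts with matches is shown.
Emcn, chr3:137340828-137341077, plus strand: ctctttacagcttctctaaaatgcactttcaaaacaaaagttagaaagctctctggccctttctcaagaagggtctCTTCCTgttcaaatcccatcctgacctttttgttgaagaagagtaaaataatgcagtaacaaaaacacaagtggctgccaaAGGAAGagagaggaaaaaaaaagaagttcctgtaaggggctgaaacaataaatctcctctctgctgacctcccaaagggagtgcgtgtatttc
Adgrl4, chr3:151437632-151437881, plus strand: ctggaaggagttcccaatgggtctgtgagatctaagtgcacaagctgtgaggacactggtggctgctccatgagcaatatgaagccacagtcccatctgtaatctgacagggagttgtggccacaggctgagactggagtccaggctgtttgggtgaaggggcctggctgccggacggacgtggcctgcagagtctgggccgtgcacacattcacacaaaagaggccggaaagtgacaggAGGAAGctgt
Erg, chr16:95459349-95459598, minus strand: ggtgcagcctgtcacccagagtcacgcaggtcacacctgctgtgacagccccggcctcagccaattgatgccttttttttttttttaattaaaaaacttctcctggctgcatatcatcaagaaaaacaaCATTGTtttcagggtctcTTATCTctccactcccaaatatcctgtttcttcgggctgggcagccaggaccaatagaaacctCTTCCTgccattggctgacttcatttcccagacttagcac
Cldn5, chr16:18776597-18776846, plus strand: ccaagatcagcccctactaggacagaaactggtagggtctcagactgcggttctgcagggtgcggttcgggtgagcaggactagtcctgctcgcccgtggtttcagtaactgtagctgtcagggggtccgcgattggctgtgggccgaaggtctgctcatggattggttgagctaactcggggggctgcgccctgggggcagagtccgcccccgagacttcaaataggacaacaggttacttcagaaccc
Eng, chr2:32646345-32646594, plus strand: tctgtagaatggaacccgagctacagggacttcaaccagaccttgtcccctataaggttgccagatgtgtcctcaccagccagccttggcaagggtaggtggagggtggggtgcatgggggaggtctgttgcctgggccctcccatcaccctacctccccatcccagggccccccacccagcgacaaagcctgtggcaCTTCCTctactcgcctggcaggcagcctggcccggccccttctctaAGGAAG

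Of the VEGF receptors, Kdr and Flt4 were lower in S100a16+/- replicates 1 and 2 and not in replicate 3. Kdr, the main signalling receptor for VEGF-A (ENSMUSG00000062960, chromosome 5, 75932827 to 75978458, minus strand), had an FPKM of 24.8, 23.7 and 56.4 in S100a16+/- replicates 1 to 3 and 55.5, 48.9 and 52.0 in WT. S100a16+/- replicates 1 and 2 held 47.6% and 45.5% of its WT mean, and replicate 3 held 108%, so the groups overlapped. Gene positions are those of the deposited table, which names no build and matches GRCm38 gene models for 31 of the 36 genes. Fitted over 6 libraries its log2 change was -0.53 ± 0.34 at adjusted p = 0.434, and leaving out S100a16+/- replicate 3 gave -1.04 ± 0.07 at adjusted p = 0.000273. Flt4, the receptor for VEGF-C on lymphatic and sinusoidal endothelium, was at 19.2, 17.1 and 41.7 against 34.7, 30.4 and 31.6. It had the same split, with replicate 3 above all WT libraries. Its log2 change was -0.27 ± 0.34 at adjusted p = 0.698 with that library, and -0.77 ± 0.08 at adjusted p = 0.00157 otherwise. Flt1, which binds VEGF-A and acts largely as a decoy, was scarce, at 1.11, 0.964 and 0.684 against 0.907, 0.89 and 0.929, with at most 1183 counts in a library, and did not reach the minimum for testing. S100a16+/- replicates 1 and 2 lay above WT and replicate 3 below.

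Tek and Tie1 were also lower in S100a16+/- replicates 1 and 2, and Ptprb differed less. Tek, the receptor kinase for angiopoietins, was at 4.87, 4.74 and 19.1 FPKM against 10.6, 8.83 and 10.1 in WT. It was the member with the highest relative level in S100a16+/- replicate 3, at 195% of the WT mean, while S100a16+/- replicates 1 and 2 were at 49.5% and 48.3%. The fitted change over all 6 libraries was 0.00 ± 0.56 at adjusted p = 0.998, against -0.97 ± 0.09 at adjusted p = 0.00124 without that library. Tie1, the related receptor without a ligand of its own, was at 43.9, 41.4 and 71.6 against 80.8, 75.3 and 76.9, with every S100a16+/- library below every WT library (log2 change -0.52 ± 0.21 at adjusted p = 0.221, and -0.80 ± 0.05 at adjusted p = 0.000253 without replicate 3). Ptprb, the phosphatase VE-PTP that damps Tek and VE-cadherin signalling, was at 37.9, 35.0 and 44.6 against 44.0, 40.3 and 40.0, with S100a16+/- replicates 1 and 2 at 91.5% and 84.5% of the WT mean. It was not called with or without replicate 3 (log2 change -0.03 and -0.12, adjusted p = 0.891 and 0.196).

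Among co-receptors and G-protein-coupled receptors, 2 of 6 fell without S100a16+/- replicate 3, Robo4 and Adgrl4, where 16.5% of all tested genes fell. Robo4, a guidance receptor that stabilises vessels, had an FPKM of 42.4, 41.4 and 120.1 against 109.6, 95.4 and 98.7 in WT, and its log2 change was -0.53 ± 0.43 at adjusted p = 0.537, and -1.21 ± 0.07 at adjusted p = 0.000227 without that library. Adgrl4, an adhesion receptor of angiogenic endothelium, was at 90.2, 87.5 and 127 against 163, 155 and 157. Its groups did not overlap, since replicate 3 was also below WT, at 80.0% of the mean, and its adjusted p was among the smallest of the set over all 6 libraries (log2 change -0.59 ± 0.15 at adjusted p = 0.0884, and -0.77 ± 0.04 at adjusted p = 0.000177 without replicate 3). Eng, the endoglin co-receptor for circulating BMP ligands, did not share the split, at 173, 165 and 212 against 176, 164 and 157. Its values in S100a16+/- replicates 1 and 2 lay within the WT range and that of replicate 3 above it (log2 change 0.20 ± 0.11 at adjusted p = 0.374).
Calcrl and its partner Ramp2 together form a receptor for adrenomedullin, and neither was called. Calcrl was at 13.3, 11.9 and 12.3 against 11.6, 9.35 and 11.0, the only member with all S100a16+/- libraries above all WT libraries, without a call (log2 change 0.28 ± 0.10 at adjusted p = 0.186, and 0.31 ± 0.11 at adjusted p = 0.0839 without replicate 3). Ramp2 was at 4.94, 6.78 and 6.86 against 10.7, 8.68 and 8.04, with every S100a16+/- library below WT and no call either (log2 change -0.51 ± 0.17 at adjusted p = 0.165, and -0.57 ± 0.19 at adjusted p = 0.0694 without replicate 3). Gpr182, a sinusoidal decoy receptor for chemokines, was at 7.37, 6.86 and 4.63 against 6.57, 6.80 and 5.67 and was not called in either fit. Its counts are uncertain, because the gene Zbtb39 overlaps it on the opposite strand with 84.5% as many counts and whether counting used strand is not stated in these sources.

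Junction and surface proteins were the largest group, and 9 of 10 fell without S100a16+/- replicate 3, where 16.5% of all tested genes fell. Cdh5, VE-cadherin, the adhesion molecule that defines endothelial junctions (ENSMUSG00000031871, chromosome 8, 104101625 to 104144511, plus strand), was the most abundant member in every library, at an FPKM of 290.3, 283 and 930.1 in S100a16+/- replicates 1 to 3 and 698, 628 and 657 in WT. The group means were 501 ± 372 and 661 ± 35.4 (SD, n = 3 each), and the S100a16+/- values lay on both sides of WT. The log2 change was -0.36 ± 0.48 at adjusted p = 0.715, and -1.14 ± 0.06 at adjusted p = 0.000161 without S100a16+/- replicate 3, a 2.21-fold fall. Pecam1 ran beside it, at 70.4, 68.9 and 207 against 177, 158 and 163, with changes of -0.48 and -1.19, the latter called (adjusted p = 0.000168).
Cldn5, the tight-junction claudin of endothelium (ENSMUSG00000041378, chromosome 16, 18776847 to 18778262, plus strand), had the widest split of all members. It was at 9.80, 7.25 and 80.2 against 71.7, 60.6 and 67.5, so that S100a16+/- replicates 1 and 2 held 14.7% and 10.9% of the WT mean and replicate 3 held 120.4%. The log2 change was -1.01 ± 0.92 at adjusted p = 0.586, and -2.90 ± 0.16 at adjusted p = 0.000187 without replicate 3, a 7.47-fold fall. Esam, a junctional immunoglobulin, was at 59.5, 54.3 and 118 against 122, 115 and 113 and had replicate 3 inside the WT range. Icam2, a leukocyte adhesion ligand, was at 10.2, 7.75 and 27.1 against 14.4, 19.4 and 21.0 and had replicate 3 above it. Without that library the log2 changes were -0.97 and -0.96 (adjusted p = 0.000253 and 0.0177).

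Plvap, Emcn and Mmrn2 were lower in all 3 S100a16+/- libraries. Plvap, which forms the diaphragms of fenestrae (ENSMUSG00000034845, chromosome 8, 71497765 to 71511752, minus strand), was at an FPKM of 108, 101 and 161 against 248, 230.2 and 223. Replicate 3 was at 68.9% of the WT mean, between the other S100a16+/- libraries and WT, and the log2 change of -0.88 ± 0.18 at adjusted p = 0.0583 was the closest of all members to a call over 6 libraries. Leaving out replicate 3 gave -1.10 ± 0.06 at adjusted p = 0.000196. Emcn, endomucin, a sialomucin of capillaries and veins, was at 97.5, 95.8 and 149 against 178, 193 and 179.7 (log2 change -0.64 ± 0.18 at adjusted p = 0.113, and -0.86 ± 0.05 at adjusted p = 0.000202 without replicate 3). Mmrn2, a matrix protein that binds VEGF and the surface lectin Clec14a, was at 73.4, 70.8 and 112 against 118, 114 and 119 (log2 change -0.41, adjusted p = 0.253, and -0.63, adjusted p = 0.000246, without replicate 3). In each of these 3 genes the groups did not overlap. Its partner Clec14a went the other way, at 4.37, 4.51 and 2.72 against 3.08, 3.11 and 2.39, and rose without replicate 3, with a log2 change of 0.70 ± 0.13 at adjusted p = 0.0133. Ecscr, a surface protein of endothelial migration, was at 30.2, 28.0 and 50.7 against 44.2, 43.7 and 46.3 and fell by 0.56 on the log2 scale without replicate 3 (adjusted p = 0.00129).

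Of the transcription factors, Erg, Sox17 and Sox18 fell without S100a16+/- replicate 3, and Gata2 was not called. Erg, the ETS factor that keeps endothelial identity (ENSMUSG00000040732, chromosome 16, 95359169 to 95586593, minus strand), was at 13.4, 13.9 and 65.2 FPKM against 45.0, 43.1 and 43.9 in WT. As a share of the WT mean, S100a16+/- replicates 1 and 2 held 30.4% and 31.5%, and replicate 3, above the WT range, held 148%. Its fall without replicate 3, -1.63 ± 0.05 at adjusted p = 4.04e-05, had the smallest adjusted p of the members, against -0.48 ± 0.64 at adjusted p = 0.715 with it. Sox17, which drives arterial fate, was at 8.76, 8.25 and 20.8 against 19.6, 18.9 and 20.3, and its relative Sox18 at 8.66, 6.81 and 34.6 against 22.0, 18.8 and 19.2. Both were below WT in S100a16+/- replicates 1 and 2 and above it in replicate 3, with log2 changes without that library of -1.14 and -1.30 (adjusted p = 0.000138 and 0.00154). Gata2, shared by endothelial and blood progenitor cells, was at 3.08, 3.00 and 2.52 against 2.66, 2.86 and 2.96. S100a16+/- replicates 1 and 2 lay just above WT and replicate 3 below, and it was not called in either fit (log2 change 0.07 and 0.17, adjusted p = 0.76 and 0.154).

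Of 6 genes of the liver sinusoid 5 were tested, and 3 fell and 1 rose without S100a16+/- replicate 3. Of all tested genes 16.5% fell and 15.8% rose in that fit. Stab2, the scavenger receptor for hyaluronan and the most abundant of these 6 (ENSMUSG00000035459, chromosome 10, 86841198 to 87008025, minus strand), had an FPKM of 49.9, 43.1 and 184 against 202, 176 and 178. Lyve1, the other hyaluronan receptor (ENSMUSG00000030787, chromosome 7, 110850607 to 110863239, minus strand), was at 31.9, 27.4 and 106 against 126, 117 and 123. In both, S100a16+/- replicates 1 and 2 stood far below WT, with Stab2 at 26.9% and 23.2% and Lyve1 at 26.1% and 22.4%, while replicate 3 lay inside the WT range for Stab2 and below it for Lyve1. The log2 changes were -0.97 ± 0.57 at adjusted p = 0.388 for Stab2 and -1.11 ± 0.53 at adjusted p = 0.289 for Lyve1, and without replicate 3 they were -1.93 ± 0.10 at adjusted p = 0.000161 and -1.98 ± 0.08 at adjusted p = 8.71e-05. Dnase1l3, a secreted nuclease, was at 3.53, 3.44 and 9.05 against 9.82, 9.55 and 11.1, again with all S100a16+/- libraries lower (log2 change -0.88, adjusted p = 0.261, and -1.48, adjusted p = 0.000203, without replicate 3).
Oit3, Wnt2 and Clec4g did not share this split. Oit3, a secreted protein enriched in sinusoidal endothelium, was at 181, 170.4 and 74.2 against 171, 172 and 155. S100a16+/- replicates 1 and 2 overlapped WT, and replicate 3 was at 44.6% of the WT mean, the lowest relative level of any member in that library (log2 change -0.17 ± 0.34 at adjusted p = 0.811). Wnt2, a signal from central-vein sinusoids to hepatocytes, was at 2.52, 2.40 and 0.864 against 1.19, 1.66 and 1.69, highest in S100a16+/- replicates 1 and 2 and lowest in replicate 3. It rose without replicate 3, by 0.76 ± 0.19 at adjusted p = 0.0311. Clec4g, the sinusoidal lectin LSECtin, was at 3.25, 3.14 and 0.468 against 0.995, 0.964 and 0.576, with counts of 629, 603 and 80 against 180, 203 and 115. It did not reach the minimum for testing over 6 libraries. With the minimum needed in 2 libraries and replicate 3 left out, its fitted log2 change was 1.97 ± 0.26. It reached that minimum only through S100a16+/- replicates 1 and 2, where it was high, so that fit is no support for a rise.

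The other members are an enzyme, a channel and secreted proteins. Nos3, endothelial nitric oxide synthase (ENSMUSG00000028978, chromosome 5, 24364810 to 24384474, plus strand), was at 6.64, 5.54 and 22.9 FPKM against 26.7, 22.0 and 26.1 in WT. Replicate 3 lay inside the WT range and the others at 26.6% and 22.2% of its mean, and the log2 change was -1.06 ± 0.55 at adjusted p = 0.334, and -1.97 ± 0.13 at adjusted p = 0.000285 without replicate 3. Atg9b, on the opposite strand, overlaps Nos3 with 7.45% as many counts. Egfl7, a secreted angiogenic factor whose intron holds a microRNA, was at 41.8, 41.8 and 109.7 against 94.6, 85.5 and 88.6. It had the Cdh5 pattern, with changes of -0.43 and -1.04 (adjusted p = 0.582 and 0.000182). Aqp1, the water channel, was at 66.5, 63.2 and 57.2 against 96.1, 85.0 and 80.8, and unlike most members it was lowest in replicate 3. Its log2 change was -0.43 ± 0.10 at adjusted p = 0.0781, and -0.36 ± 0.08 at adjusted p = 0.0232 without replicate 3. Vwf, von Willebrand factor of large vessels and platelets, was scarce, at 1.02, 0.99 and 0.155 against 0.263, 0.261 and 0.177 FPKM. It was higher in S100a16+/- replicates 1 and 2 than in any other library, with 1293 and 1240 counts against 231 to 357 in WT and 173 in replicate 3, and did not reach the minimum for testing.

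The order of the levels changed with the split. In WT, Cdh5 stood alone at 661 ± 35.4 FPKM (SD, n = 3), followed by Plvap at 234 ± 12.7. Stab2 and Emcn came next, at 186 ± 14.7 and 183 ± 8.39, with overlapping ranges. Oit3, Pecam1, Eng and Adgrl4 followed, from 166 ± 9.60 down to 158 ± 4.21, and their ranges overlapped too, as did those of Lyve1, Esam and Mmrn2, at 122 ± 4.80, 117 ± 4.88 and 117 ± 2.63 (SD, n = 3). In S100a16+/- replicates 1 and 2, Oit3 moved from rank 5 to 2 and Eng from 7 to 3 among the 36, while Stab2 moved from rank 3 to 11.

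Members differed by unequal factors, as their shares of the summed counts of the 36 genes show. The share in S100a16+/- replicates 1 and 2 was below every WT library for 15 members, above every WT library for 17 and overlapping for 4. Cldn5 had the lowest relative share, with a mean share of 0.171% against 0.688% in WT, 0.249 times the WT share. Lyve1, Nos3 and Stab2 stood at 0.47, 0.474 and 0.488 times, and Erg at 0.603 times. Kdr, Egfl7, Esam, Icam2, Tek, Emcn, Tie1, Flt4 and Adgrl4 kept shares of 0.906 to 1.09 times WT. Eng, Oit3, Gata2, Gpr182, Flt1 and Calcrl had shares of 1.99 to 2.31 times. The gains were widest for Clec14a (3.03 times), Wnt2 (3.14 times), Clec4g (7.34 times) and Vwf (8.36 times), which are all scarce, at 0.23% against 0.0275% in WT for Vwf. In S100a16+/- replicate 3 the share of Oit3 was 0.412 times and that of Tek 1.80 times the WT share. These shares are a description, with no test. The summed counts were lower in S100a16+/- replicates 1 and 2, so a share can rise there without a rise in level. Eng, at 104.7% and 99.4% of its WT mean FPKM in these libraries, had 1.99 times the WT share. Shares above WT also include members that fell without replicate 3, such as Tie1 and Aqp1.

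**Figure D3:**
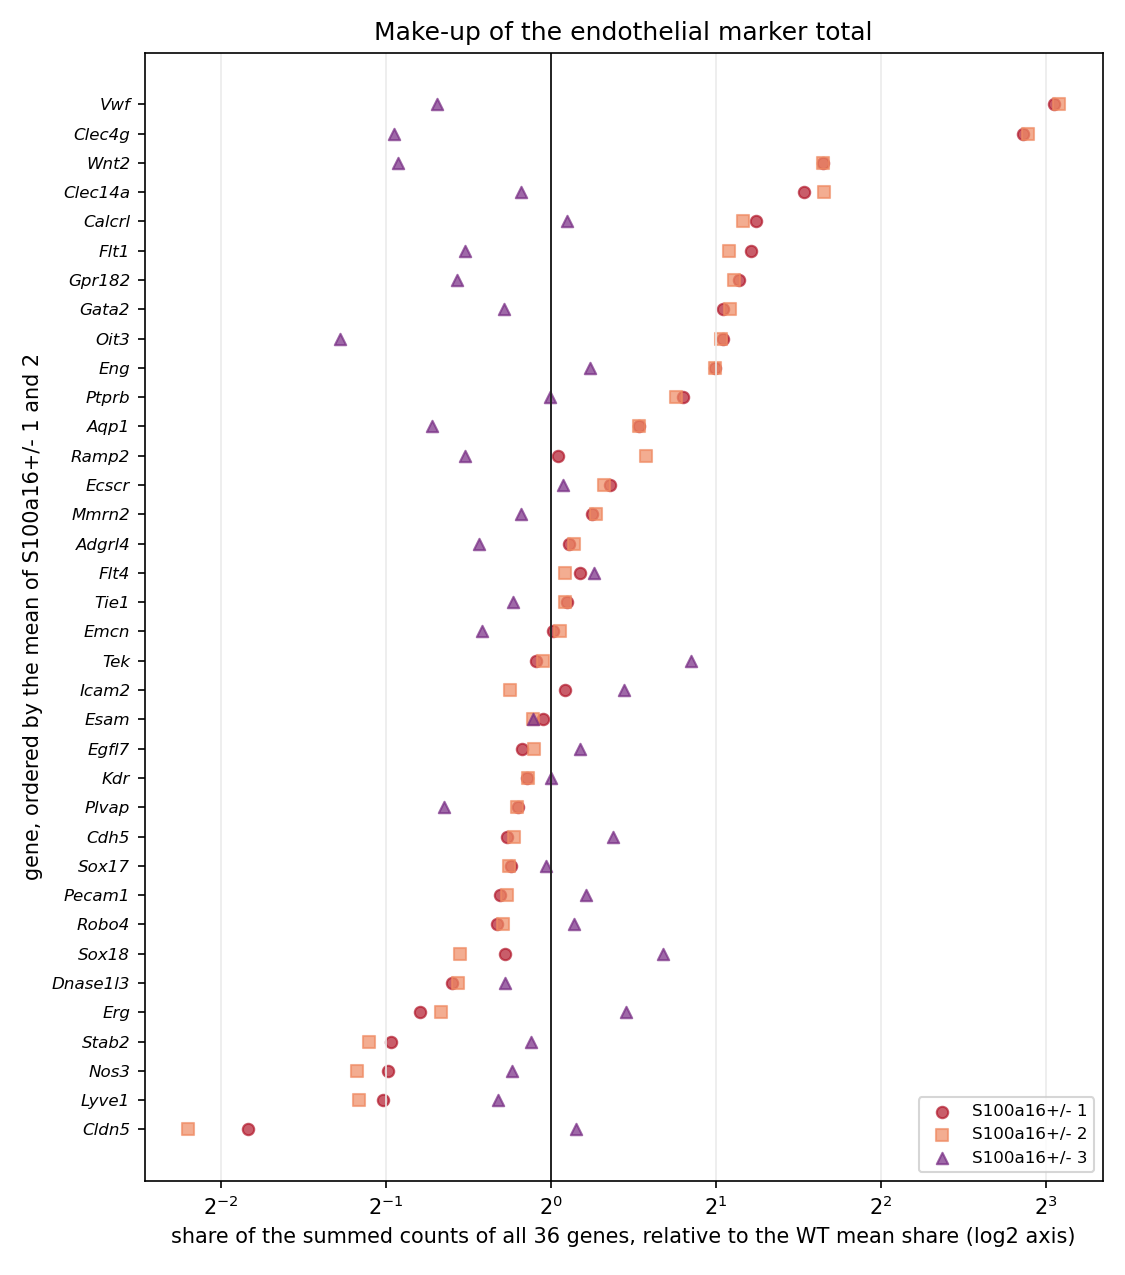
Share of each gene in the summed counts of the 36 genes, relative to its mean share in WT (log2 axis), for the 3 S100a16+/- libraries; genes are ordered by the mean of replicates 1 and 2. S100a16+/- replicates 1 and 2 lie together for nearly all genes, from 0.249 (Cldn5) to 8.36 (Vwf), and replicate 3 follows another order.

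Ligands and partners of these receptors were mostly not called over 6 libraries. Of all tested genes 1.61% fell and 2.85% rose over 6 libraries, and 16.5% fell and 15.8% rose without S100a16+/- replicate 3. Among 11 tested VEGF ligands, semaphorins and co-receptors 1 rose and 0 fell; Nrp1, the neuropilin that assists Kdr, had 24.0, 24.3 and 21.8 FPKM against 16.2, 15.9 and 16.4 and rose, with a log2 change of 0.58 ± 0.07 at adjusted p = 0.0198. Its groups did not overlap. The list's median log2 change was 0.10, and 3 rose and 3 fell without S100a16+/- replicate 3. Among 13 tested angiopoietins and BMP pathway partners, 0 were called in either direction (edgeR quasi-likelihood; 4 fell and 6 rose without replicate 3), with a median of 0.05. Angpt2, the context-dependent Tek ligand that endothelial cells store, was the most abundant, at 113, 100.1 and 427 against 371, 328 and 338 (log2 change -0.66 ± 0.57 at adjusted p = 0.566, and -1.63 ± 0.08 at adjusted p = 0.000162 without replicate 3). Id3, a target of BMP signalling, was at 66.1, 70.9 and 27.6 against 45.9, 48.1 and 49.2 (log2 change 0.26 ± 0.35 at adjusted p = 0.719).

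Other genes of endothelial identity, 49 tested beside the members, also differed more without S100a16+/- replicate 3. Over 6 libraries 1 fell, the tetraspanin-like gene Tm4sf1, with a log2 change of -0.41 ± 0.07 at adjusted p = 0.043, from 64.6, 70.9 and 69.6 FPKM in WT to 52.0, 49.9 and 47.5, and 0 rose. The median log2 change was -0.29, and leaving that library out gave -0.57, where 30 fell and 4 rose. Of all tested genes 16.5% fell and 15.8% rose without that library, and 1.61% fell and 2.85% rose over 6 libraries. Sinusoidal and zonation genes beyond the members were mixed: 4 of 31 rose and 2 fell over 6 libraries, with 10 higher and 10 lower of 30 without replicate 3. The cytokine gene Il1a, also made by macrophages, rose by a log2 change of 0.97 ± 0.09 at adjusted p = 0.00865. The adhesion receptor gene Adgrg6 rose by 1.12 ± 0.10 at adjusted p = 0.00887. The semaphorin receptor gene Plxnc1, counted among the 4, was higher by 1.66 ± 0.09. It reached the minimum for testing only in the S100a16+/- libraries, where it was high, so its call is no support for a rise. The decoy chemokine receptor gene Ackr3 fell (log2 change -1.11 ± 0.11 at adjusted p = 0.0118), at 1.60, 1.55 and 1.86 against 3.51, 3.85 and 3.89 FPKM. These 4 had no overlap between groups. Among 13 tested genes of capillarization, the loss of sinusoidal character, and of lymphatics, 1 rose, Spp1, which bile duct cells and macrophages also make (log2 change 2.41 ± 0.43 at adjusted p = 0.0412), and 9 fell and 2 rose without replicate 3.

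Markers of other liver cells also differed between the libraries, not all with the endothelial split. Beside the counts below, 1.61% of all tested genes fell and 2.85% rose over 6 libraries. Without S100a16+/- replicate 3, 16.5% fell and 15.8% rose. The 22 macrophage and Kupffer cell markers summed to an FPKM of 18460.0 and 19740.0 in S100a16+/- replicates 1 and 2, 14430.0 in replicate 3 and 11450.0 to 12070.0 in WT, and 3 of 22 rose over 6 libraries (6 fell and 11 rose without replicate 3). These were the secreted scavenger protein gene Cd5l, the scavenger receptor gene Marco and the macrophage surface gene Adgre1, with log2 changes of 0.91, 1.17 and 0.46 (adjusted p = 0.0206, 0.0376 and 0.0497). The 20 hepatocyte markers found summed to 64.2, 66.3 and 743 in the S100a16+/- libraries and 121 to 165 in WT, with 0 of 13 tested called (edgeR quasi-likelihood; 11 fell and 1 rose without replicate 3). Alb, the albumin gene, was at 4.81, 5.52 and 242 against 64.7, 57.4 and 42.9, and the urea cycle gene Ass1 at 49.5, 52.1 and 15.4 against 27.0, 27.8 and 28.9. Lymphocyte markers summed to at most 11.7 in any library; the most abundant were Cd4 at 1.20, 1.29 and 6.51 against 6.66, 7.01 and 6.55 and Cd79b at 0.519, 0.349 and 2.58 against 2.31, 2.64 and 2.78. Among 10 platelet and red cell genes, 3 globin genes had a count of 0 in all 6 libraries, and the platelet integrin gene Itga2b fell (log2 change -1.16 ± 0.15 at adjusted p = 0.0211). Of 2 tested neutrophil genes S100a8 rose (log2 change 3.28 ± 0.56 at adjusted p = 0.0386), with Ly6g, Retnlg and S100a9 at a count of 0 in all 6 libraries, and of 7 tested mesothelial and portal fibroblast genes the elastin gene Eln fell (log2 change -4.10 ± 0.43 at adjusted p = 0.0132). Of 4 tested cholangiocyte markers Spp1 rose, as above. Calls over 6 libraries in these lists were sensitive to single libraries. Plxnc1 was tested in only 3 of the 6 fits without 1 library, those that kept every S100a16+/- library, so its calls there say little. Il1a and Adgrg6 stayed called in 2 of 6. Each of the other called genes named here stayed called only without S100a16+/- replicate 3, with adjusted p of up to 0.235 (Adgre1) otherwise. In S100a16+/- replicates 1 and 2 endothelial, hepatocyte and lymphocyte sums were below WT, the macrophage sum above it and the stellate sum at the WT level; in replicate 3 the stellate sum was below WT and the hepatocyte sum above it. Their part in the endothelial differences was not tested.

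**Figure D4:**
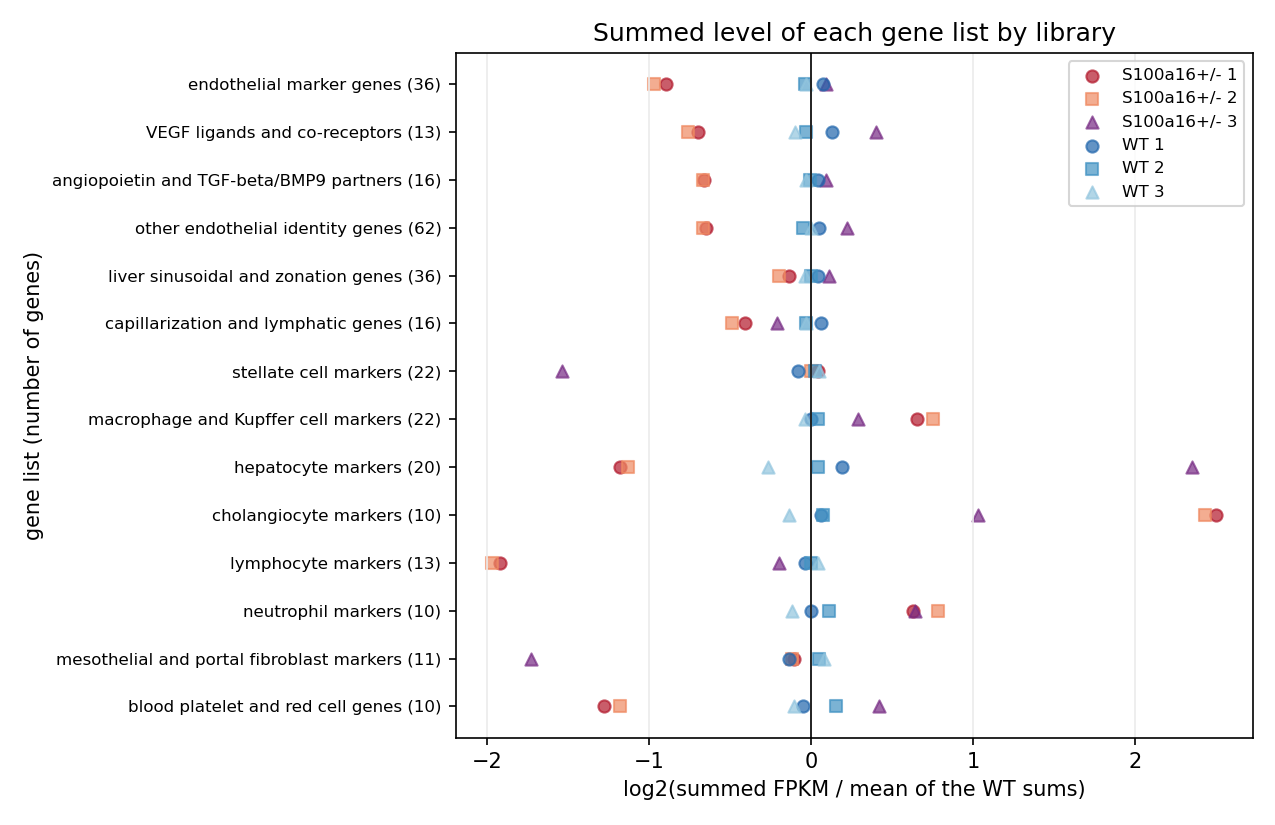
Summed FPKM of each gene list in each library as a log2 ratio to the mean of the WT sums; the number of genes is in parentheses. The endothelial marker genes lie at -0.90 and -0.97 in S100a16+/- replicates 1 and 2 and at 0.09 in replicate 3, and the stellate cell markers at 0.04, 0.00 and -1.54. Single abundant genes carry some sums, such as Spp1 among cholangiocyte markers.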

How the data were processed

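The authors deposited whole-number counts and FPKM for 55401 genes in 6 libraries, per the file headers; the deposited FPKM carry 0.0001 where the count is 0. Tools in the submitters' processing notes are HISAT2 2.0.4, cutadapt 1.9, StringTie 1.3.4d, edgeR, DESeq2 and UMI-tools, with no role stated. Genome build, collapsing of molecular identifiers and strand use in counting: not given in the sources used here. Per the labels' protocols, libraries were poly(A)-selected, strand-marked and sequenced from both ends. Of 55141 gene identifiers found in GENCODE M21 (GRCm38), 94.2% had the same coordinates, and 31 of the 36 members did. Gene positions follow the deposited table.

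Genes reaching FPKM 1 in 3 or more libraries were tested on counts with edgeR 4.0.16 (R 4.3.3): TMM scaling, quasi-likelihood, genotype as the only term, Benjamini-Hochberg over all genes, called under 0.05. SEs are |log2 change|/√F. The step was tested on simulated data. The 36 members and the gene lists were chosen with earlier results of these data known. Members with a mean FPKM of at least 1 in a genotype are described with each library's value, and Flt1 and Vwf also with their highest count. From each other list up to 4 called genes with the smallest adjusted p were named, or the 2 most abundant where none was called. Library pairs were not duplicates: the chi-square per gene, the squared count difference over its sampling variance, averaged at least 44.46 in each pair. Alternatives were scalings, filters, tests (limma 3.58.1 and DESeq2 1.42.0), thresholds, a replicate block and each library left out.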

Additional observations from a re-analysis of the deposited data

How the results depend on the processing

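The count of called members depended on S100a16+/- replicate 3 and on the test. Over 6 libraries 0 members were called, also with other scalings, other filters, limma on log2(FPKM + 1) or with a pseudocount of 0.1, and an adjusted p under 0.01. DESeq2 called 4 lower, limma voom with sample weights 25 lower and 3 higher (17.8% and 17.2% of all genes), and an adjusted p under 0.1 gave 3 lower (3.65% of all genes). Leaving out each library in turn gave 0 to 24 lower and 0 to 2 higher members, 25 to 4066 called genes of all kinds and a median member change of -0.96 to -0.28; member counts above 0 came only without S100a16+/- replicate 3. With the minimum then needed in 2 libraries there were 24 lower and 3 higher members, against 16.2% and 15.8% of all genes. Clec4g, among the 3 higher, reached that minimum only through S100a16+/- replicates 1 and 2, where it was high. Against 570 genes called over 6 libraries, there were 243 with no filter, 1888 with DESeq2, 4463 with voom weights, 58 and 1238 at thresholds of 0.01 and 0.1, and 4185 without S100a16+/- replicate 3 at the minimum in 2 libraries. The replicate number as a block called 0 genes and 0 members in edgeR (2207 genes, 17.3%, and 11 members at an unadjusted p under 0.05); same-numbered libraries share only a number, with correlations of -0.129, 0.0176 and -0.0642 between their deviations, so this is not a paired analysis.

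Signs turned for 6 members, none called over 6 libraries. Tek (0.00) ranged from -0.97 to 0.32 over single libraries left out, and was at -0.04 with library totals, -0.02 with upper-quartile scaling, -0.00 with no filter, a mean FPKM of at least 5 or filterByExpr, -0.33 with the replicate block, -0.30 and -0.36 with limma, -0.90 with voom weights, -0.08 without WT replicate 2 and -0.97 without S100a16+/- replicate 3, with either minimum. Gpr182 (0.04) was at -0.02 with library totals, -0.03 and -0.04 with limma, and -0.09, -0.03 and -0.04 without S100a16+/- replicates 1 or 2 or WT replicate 3. Oit3 (-0.17) was at 0.11 with voom weights and 0.14 without S100a16+/- replicate 3, with either minimum. Over single libraries left out, Ptprb ranged from -0.12 to 0.04, Gpr182 from -0.09 to 0.23, Sox18 from -1.30 to 0.15 and Oit3 from -0.39 to 0.14. Without S100a16+/- replicate 2, Ptprb was at 0.04, Icam2 at 0.07 and Sox18 at 0.15; Ptprb was at 0.01 without WT replicate 1 and Sox18 at 0.09 without S100a16+/- replicate 1. With no filter on low values Flt1, Clec4g and Vwf were tested too and not called.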

Other observations

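A few endothelial genes outside the members were picked after their values were seen, because they showed the same split, so their values are a description with no test. Apln, the apelin gene of tip cells at the front of sprouts, had an FPKM of 177, 166 and 817 in S100a16+/- replicates 1 to 3 and 678, 607 and 653 in WT. Esm1, another tip cell gene, was at 324, 317 and 744 against 628, 593 and 618, and the Notch ligand gene Dll4 at 2.12, 1.75 and 12.0 against 8.20, 6.95 and 7.76. Pgf, a ligand of Flt1, was at 14.5, 15.0 and 148 against 119, 99.4 and 80.2, so that S100a16+/- replicates 1 and 2 were far below every other library.

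Further genes, also picked after their values were seen, had other patterns. The fatty acid transporter gene Cd36, shared by capillaries and macrophages, was at 511, 540.4 and 122 against 129, 136 and 124 FPKM, high in S100a16+/- replicates 1 and 2 alone. The adhesion molecule genes Vcam1, lower, and Icam1, higher, were at 38.2, 35.8 and 64.4 against 99.9, 99.9 and 96.6 and 56.2, 53.8 and 39.0 against 30.0, 33.8 and 29.8 FPKM, with no overlap between groups in either.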
